A study of Capra hircus with 9 samples.

Results

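The family of miR-103 and miR-107 was examined in small RNA libraries of goat mammary gland taken in late gestation, in late lactation and after drying off. The members were the rows of the deposited count table whose names start with chi-miR-103- or chi-miR-107-. This rule found 3 of the 1359 listed mature miRNAs, namely chi-miR-103-3p, chi-miR-103-5p and chi-miR-107-3p, and used no measured value. Of these, 2 passed the filter on low counts (at least 0.5 CPM in at least 3 libraries, where CPM is counts per 1000000 counts of a library), as did 696 of all listed miRNAs, and chi-miR-103-5p did not.

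Each of the 9 libraries was made from a different Laoshan dairy goat, healthy and given no treatment. All goats were of parity 3, about 4 years old and kept on the same farm. The gland was taken at slaughter. Late lactation (LL) was sampled at 240 days postpartum (n = 3), the dry period (DP) at 300 days postpartum (n = 3) and late gestation (LG) at 140 days after mating (n = 3). Each stage was thus a different set of animals, and whole gland tissue was used, with no cells sorted. The counts of a library summed to between 16451436 and 24616668 in LL, 13672653 and 23392916 in DP, and 21301913 and 34378995 in LG.

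Mature miRNAs guide Argonaute proteins to messenger RNAs, mainly through the seed near their 5′ end, and lower the output of those messengers. chi-miR-103-3p and chi-miR-107-3p are the guide strands of a family whose members share their seed and are nearly identical in sequence. The family is known for dampening insulin signalling in liver and fat, for acting on Dicer, and for favouring milk fat synthesis in goat mammary epithelial cells. Its genes lie within those of pantothenate kinases, which catalyse the first step of coenzyme A synthesis.

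In the RefSeq annotation of the genome build the authors aligned to (ARS1.2), the hairpin gene MIR103 was at chr13:50646831-50646916, 86 bases long. It lay inside the span of the protein-coding gene PANK2 (chr13:50640389-50669701). MIR107 was at chr26:40101418-40101504, 87 bases long, inside the span of PANK1 (chr26:39998938-40110517). Whether each hairpin is in an intron or an exon of its host was not analysed here. Because the mature forms are so alike and the treatment of reads that match both is not given in the sources used here, the split of reads between chi-miR-103-3p and chi-miR-107-3p is uncertain.

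chi-miR-103-3p, the main guide strand, was most abundant in LL. Its level, in CPM scaled with edgeR's TMM method, was 6729, 7623 and 7155 CPM in the libraries of LL. In DP the libraries had 2042, 2724 and 2473 CPM. In LG they had 3098, 2311 and 2629 CPM. Every LL library thus lay above every library of DP and LG, while the ranges of DP and LG overlapped. The stage means were 7169 ± 447 CPM in LL, 2413 ± 345 CPM in DP and 2679 ± 396 CPM in LG (SD, n = 3 each). By raw count chi-miR-103-3p ranked between 17th and 19th of all listed miRNAs in LL, 40th in each DP library and between 25th and 35th in LG.

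chi-miR-107-3p, the less abundant guide strand, followed the same order at a lower level. Its level was 453, 505 and 557 CPM in the LL libraries, 156, 127 and 167 CPM in those of DP, and 153, 159 and 163 CPM in those of LG. Again LL stood apart and DP and LG overlapped. The means were 505 ± 51.9 CPM in LL, 150 ± 20.5 CPM in DP and 159 ± 4.87 CPM in LG (SD, n = 3 each). The lowest count behind any of these values was 2479 reads, in DP replicate 1.

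**Figure D1:**
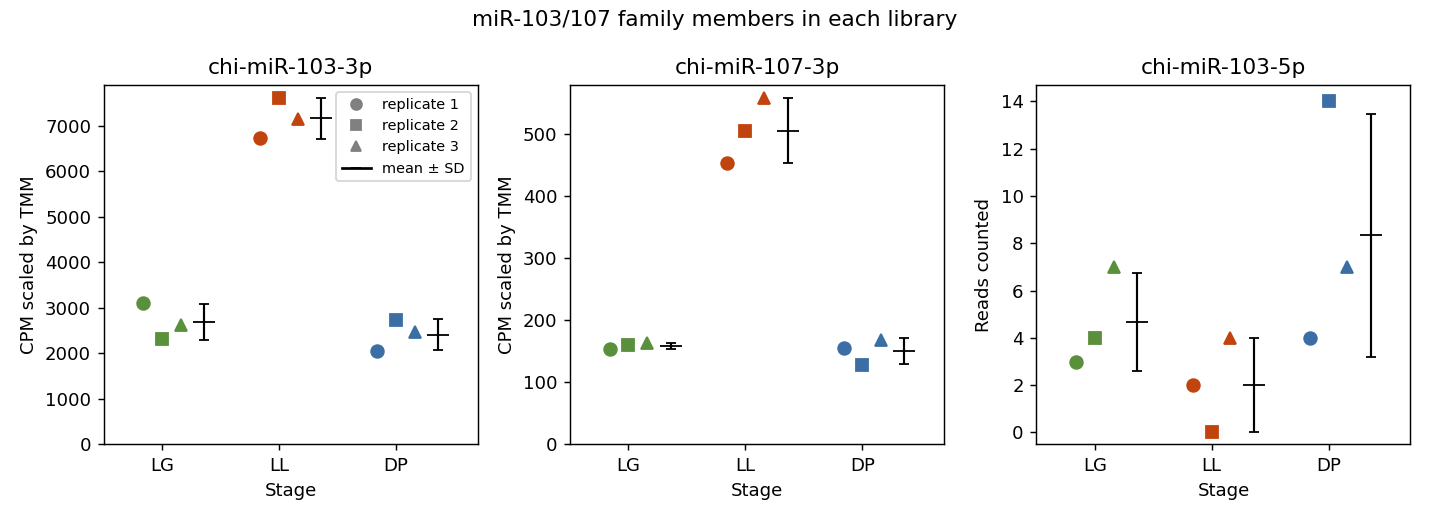
Levels of chi-miR-103-3p and chi-miR-107-3p (CPM scaled by TMM) and reads counted for chi-miR-103-5p in each library of LG, LL and DP; points are single goats, bars the mean ± SD of 3. The LL libraries have 6729 to 7623 CPM of chi-miR-103-3p and 453 to 557 CPM of chi-miR-107-3p, above all other libraries, and no library has more than 14 reads of chi-miR-103-5p.

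LL vs. LG asks how a gland late in milk secretion differs from one close to kidding. Both guide strands rose in LL. The log2 fold change (log2FC) of chi-miR-103-3p was 1.42 (SE 0.20) with an adjusted p of 0.00208, and that of chi-miR-107-3p was 1.67 (SE 0.21) with an adjusted p of 0.00109. Both come from the quasi-likelihood test of edgeR, adjusted over all 696 miRNAs by the Benjamini-Hochberg method. These are differences of 2.68-fold and 3.18-fold. Calling a miRNA differentially expressed took an absolute log2FC above 1 together with an adjusted p under 0.05, which 12.8% of the tested miRNAs passed in this comparison and 8.91% passed as higher in LL. The libraries of LL and LG did not overlap for 48.4% of the tested miRNAs, and all LL libraries were above all LG libraries for 31.0%. With libraries scaled by their size only, the log2FC of chi-miR-103-3p was 0.85 (edgeR adjusted p = 0.0204), which is below the log2FC that a call needs.

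DP vs. LL covers the end of milk secretion. Both guide strands fell in DP, where 26.7% of tested miRNAs were called and 11.6% were called as lower. chi-miR-103-3p had a log2FC of −1.57 (SE 0.21, adjusted p = 0.000386, edgeR) and chi-miR-107-3p one of −1.75 (SE 0.21, adjusted p = 0.000336, edgeR). Their levels in DP were 2.97-fold and 3.37-fold below those in LL. The stages did not overlap for either, as for 41.2% of all tested miRNAs, with DP below LL throughout for 20.3%. Both calls held under each of the 9 alternative ways of processing and without each library in turn.

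DP vs. LG sets the dry gland beside the gland near term. Neither guide strand passed the test, while 31.5% of tested miRNAs did. The log2FC was −0.15 (SE 0.20, adjusted p = 0.628, edgeR) for chi-miR-103-3p and −0.08 (SE 0.21, adjusted p = 0.799, edgeR) for chi-miR-107-3p. The stages overlapped for both when scaled by TMM, but not for chi-miR-103-3p by library size only. With TMM they did not overlap for 44.7% of all tested miRNAs, and DP was below LG throughout for 17.0%. The 3 comparisons share libraries, so LL enters both that passed.

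The scaling of the libraries moved these values. The most abundant miRNA in the late lactation and late gestation libraries, chi-miR-148a-3p, a miRNA abundant in milk and in lactating gland, held 48.4% to 59.4% of the counts of a library in LL, 39.4% to 44.6% in LG and 8.81% to 10.8% in DP. Leaving it out before TMM gave chi-miR-103-3p a log2FC of 1.23 in LL vs. LG, as DESeq2 did with it included. TMM factors, which correct library sizes for differences in composition, were 0.745 to 0.920 in LL, 0.930 to 1.17 in DP and 1.15 to 1.28 in LG. The median log2FC of all 696 miRNAs in LL vs. LG was 0.17 with TMM and −0.42 with library size only. Measured from that median, the log2FC of chi-miR-103-3p in LL vs. LG was between 1.23 and 1.27 over TMM and its 9 alternatives, and that of chi-miR-107-3p between 1.47 and 1.51. In DP vs. LL the same difference from the median lay between −1.77 and −1.60 for chi-miR-103-3p and between −1.94 and −1.78 for chi-miR-107-3p. In DP vs. LG it lay between −0.40 and −0.27 for chi-miR-103-3p and between −0.33 and −0.21 for chi-miR-107-3p. With TMM, 89.5% of the tested miRNAs had a lower fold change than chi-miR-103-3p in LL vs. LG, and 93.5% had a lower one than chi-miR-107-3p.

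**Figure D2:**
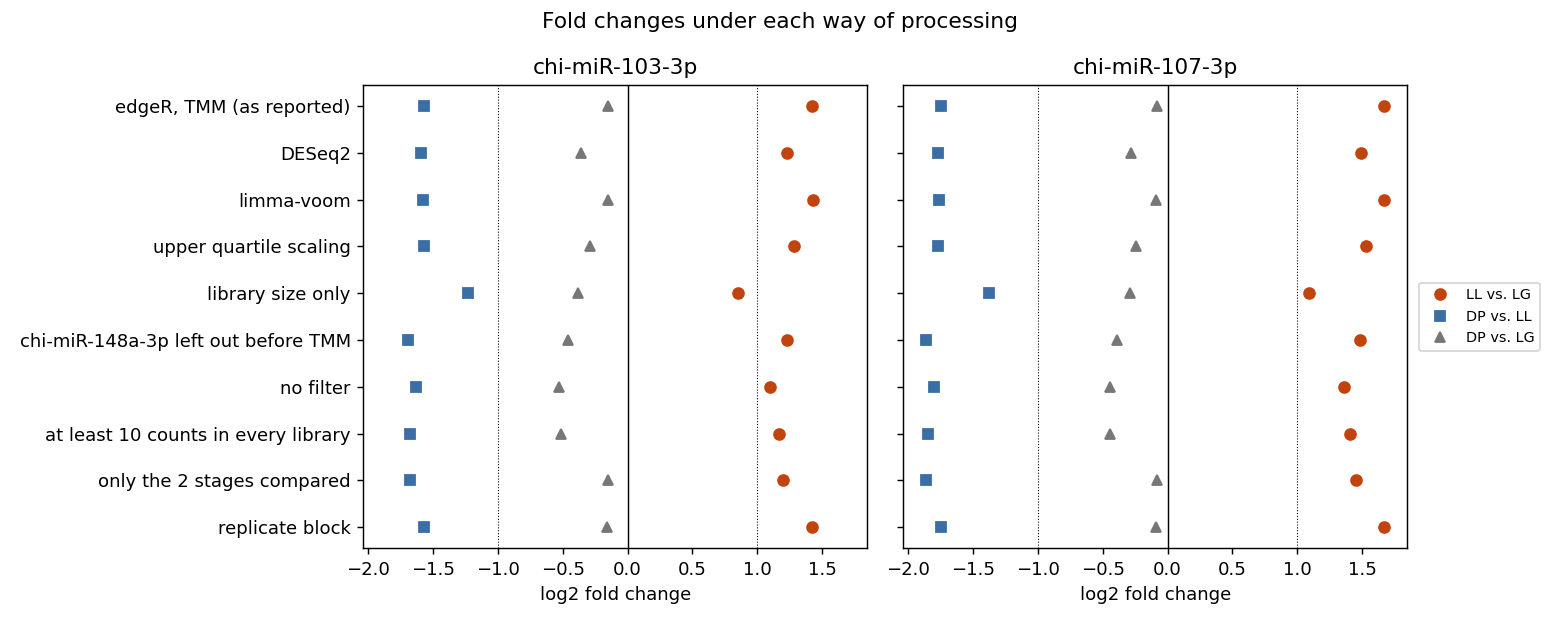
Log2FC of chi-miR-103-3p and chi-miR-107-3p in the 3 comparisons under edgeR with TMM and 9 other ways of processing; dotted lines mark the limits of −1 and 1. LL vs. LG stays above 1 except for chi-miR-103-3p with library size only (0.85), DP vs. LL stays below −1 throughout, and DP vs. LG lies between −0.53 and −0.08.

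The family was next measured as a share of each library, with no scaling. chi-miR-103-3p and chi-miR-107-3p together took 0.535%, 0.748% and 0.580% of the counts in LL, 0.256%, 0.265% and 0.270% in DP, and 0.373%, 0.294% and 0.359% in LG. The stages did not overlap on this measure, with LL highest and DP lowest. How many of all miRNAs separate the stages on unscaled shares was not analysed here. The log2 share differed among the stages in an exact permutation test over the 1680 assignments of the 9 libraries (p = 0.00357, the smallest p they allow, and adjusted p = 0.00536 over the 3 such tests made). By the means of the log2 shares, LL and LG differed 1.81-fold, LL and DP 2.33-fold, and LG and DP 1.29-fold. Each pair had an exact two-sided permutation p of 0.1, which is the smallest that 3 against 3 libraries can give.

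Shares also move where another miRNA takes more or fewer counts. With chi-miR-148a-3p taken out of the totals, the family held 1.34% ± 0.108 in LL, 0.292% ± 0.00443 in DP and 0.594% ± 0.0645 in LG (SD, n = 3 each). LG was above DP on this share in all libraries, between 0.530% and 0.659% against 0.287% and 0.296%. How many of all miRNAs separate these stages on this share was not analysed either. The order of LL over LG and DP was thus the same on every scale shown, whereas the distance between LG and DP went from overlapping levels with TMM to separate shares.

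**Figure D3:**
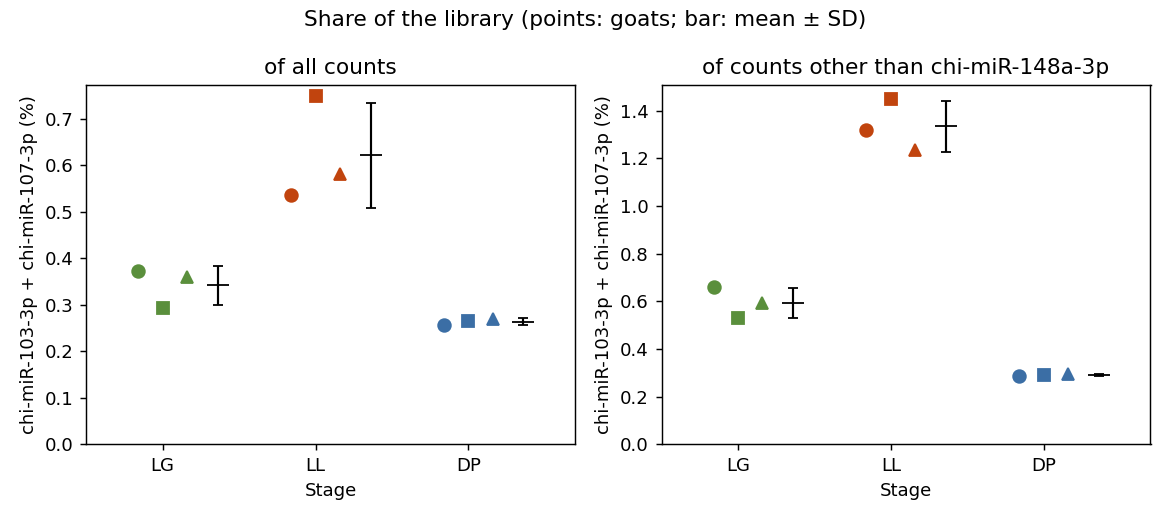
Summed chi-miR-103-3p and chi-miR-107-3p as percent of all counts of a library and of its counts other than chi-miR-148a-3p; points are single goats, bars the mean ± SD of 3. LL is highest and DP lowest on both, with means of 0.621% and 0.264% of all counts.

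The balance between both guide strands was compared within each library, where scaling cancels. There were 14.8, 15.1 and 12.8 reads of chi-miR-103-3p per read of chi-miR-107-3p in LL, 13.1, 21.4 and 14.8 in DP, and 20.2, 14.5 and 16.1 in LG. DP replicate 2 and LG replicate 1 had the highest ratios, and all 3 stages overlapped. No difference among stages beyond the spread was found (exact permutation test of the log2 ratio over 1680 assignments, p = 0.561, also 0.561 after adjustment). On the log2 scale the mean ratio was 3.83 ± 0.13 in LL, 4.01 ± 0.37 in DP and 4.07 ± 0.24 in LG (SD, n = 3 each). The share of chi-miR-107-3p in the summed counts was 4.46% (95% exact binomial interval 4.30% to 4.63%) in DP replicate 2 and 7.23% (7.09% to 7.36%) in LL replicate 3, the lowest and the highest of the 9 libraries. Such intervals cover counting error only, since no molecular identifiers are described that would tell PCR copies from separate molecules.

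chi-miR-103-5p, the passenger strand of the same hairpin, was close to the limit of detection. It had 2, 0 and 4 reads in LL, 4, 14 and 7 in DP, and 3, 4 and 7 in LG. In LL replicate 2, a count of 0 allows a level of up to 0.182 CPM (3 counts). Per 1000000 reads of both arms, chi-miR-103-5p had 0 to 30.2 reads in LL, 123 to 236 in DP and 33.2 to 68.3 in LG. The DP libraries were thus above the others on this share, but DP replicate 1 rested on 4 reads (123 per 1000000, 95% exact binomial interval 33.5 to 315). In an edgeR fit without the filter, no comparison passed for chi-miR-103-5p (adjusted p = 0.234 in DP vs. LL, 0.326 in DP vs. LG and 0.810 in LL vs. LG). The fitted level was 2.96-fold higher in DP than in LL, from sums of 25 and 6 reads.

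The miR-15/16 relatives are the closest group by seed. They share most of the seed of this family, shifted by a base, and are known for holding back the cell cycle and the survival factor BCL2. Of 8 listed guide strands, 7 were in the table and all 7 were tested, whereas chi-miR-503-5p was not analysed here. In DP vs. LL, 5 of 7 rose in DP and none fell, beside 15.1% of all tested miRNAs that rose, and the median log2FC of the 7 was 1.28 against 0.12 for all miRNAs. In DP vs. LG, 2 of 7 rose, beside 21.6% of all, with a median of 0.97 against 0.18. In LL vs. LG, 0 of 7 passed in edgeR's test, 3 had an unadjusted p under 0.05, and the median was −0.26 against 0.17, with 12.8% of all tested miRNAs called. DESeq2 called 1 there, beside 17.7% of all, and limma-voom 0. With library size only 3 were lower in LL, where 30 of all 696 miRNAs were higher and 90 lower. The number was 1 without DP replicate 1 or DP replicate 3.

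The most abundant of these relatives was chi-miR-16a-5p. Its libraries had 1820, 2045 and 1752 CPM in LL, 3832, 6220 and 3556 CPM in DP, and 1834, 1655 and 1360 CPM in LG. DP lay above both other stages in every library, as it did above LL for 21.0% and above LG for 27.7% of all tested miRNAs. The log2FC was 1.28 (SE 0.25, adjusted p = 0.00378, edgeR) in DP vs. LL and 1.49 (SE 0.25, adjusted p = 0.00134, edgeR) in DP vs. LG. chi-miR-497-5p, which is made from the same primary transcript as miR-195, measured 37.9, 50.2 and 77.5 CPM in LL, 152, 132 and 185 CPM in DP, and 45.8, 50.3 and 64.3 CPM in LG. It rose in DP against LL (2.83-fold, adjusted p = 0.00512, edgeR) and against LG (2.92-fold, adjusted p = 0.00331, edgeR).

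chi-miR-15a-5p, chi-miR-15b-5p and chi-miR-16b-5p passed in DP vs. LL and in neither other comparison, with levels in DP that were 2.15-fold, 3.43-fold and 2.85-fold those in LL. In DP vs. LG their log2FC values were 0.99, 0.96 and 0.85, with edgeR adjusted p of 0.0160, 0.0434 and 0.0352, each below the log2FC that a call needs. chi-miR-195-5p and chi-miR-424-5p passed in no comparison. chi-miR-424-5p had 83 to 704 reads in DP.

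**Figure D4:**
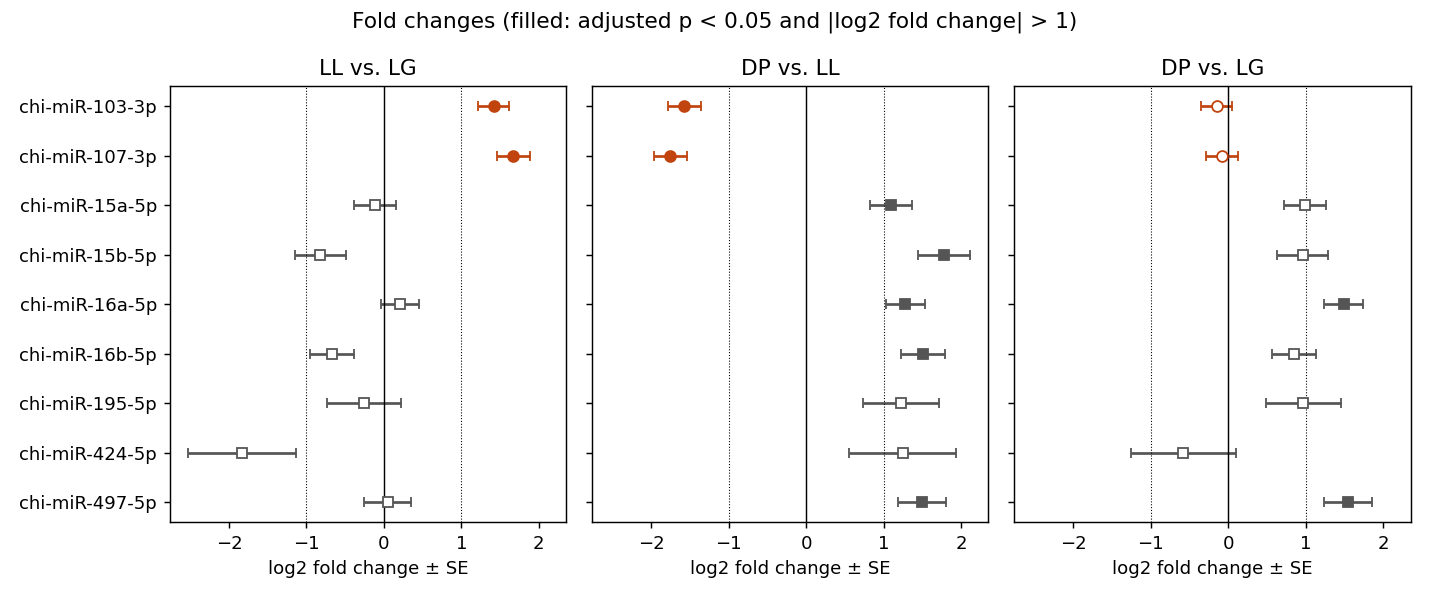
Log2 fold change ± SE of chi-miR-103-3p and chi-miR-107-3p (circles) and of 7 miR-15/16 relatives (squares) in the 3 comparisons; filled symbols were called, and dotted lines mark −1 and 1. In DP vs. LL the family lies at −1.57 and −1.75, while the 5 relatives that were called lie above 1, up to 1.78.

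The difference between the family and its relatives was tested within libraries. Summed reads of chi-miR-103-3p and chi-miR-107-3p per summed read of the 7 relatives were 3.02, 3.14 and 3.35 in LL, 0.395, 0.350 and 0.575 in DP, and 1.19, 0.971 and 1.31 in LG. The stages did not overlap, and how often other sets of miRNAs separate in this way was not analysed here. The log2 ratio differed among them (exact permutation test over 1680 assignments, p = 0.00357, the smallest they allow, adjusted p = 0.00536). From LL to DP the balance moved 7.37-fold toward the miR-15/16 relatives, and between LG and DP it moved 2.67-fold the same way. LL was 2.76-fold above LG. Without both miR-16 forms in the sum the stages did not overlap either, and the balance differed 8.61-fold between LL and DP, 2.27-fold between LG and DP and 3.79-fold between LL and LG.

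**Figure D5:**
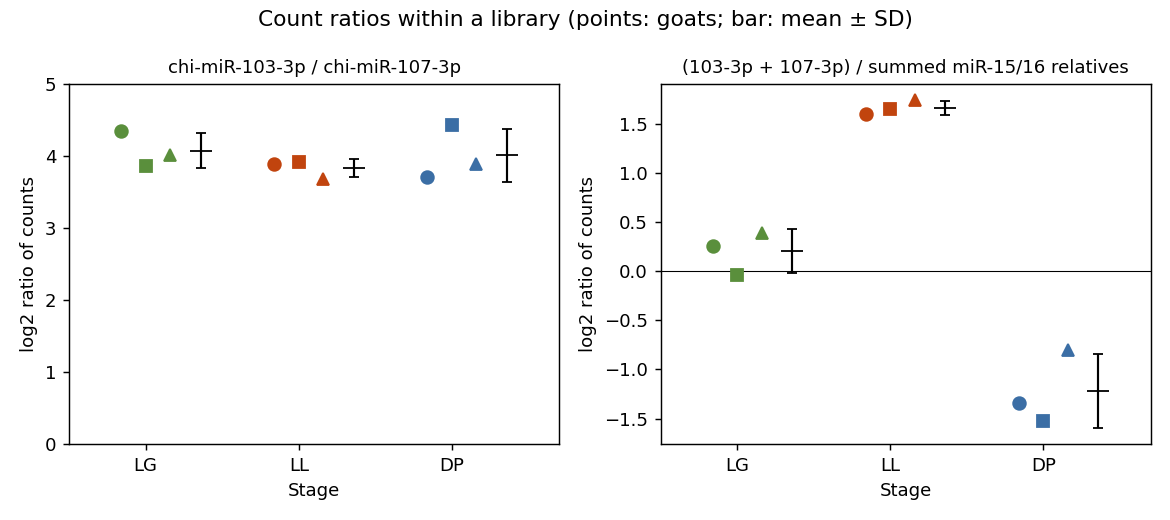
Log2 ratio of counts within each library, for chi-miR-103-3p over chi-miR-107-3p and for both summed over 7 miR-15/16 relatives; points are single goats, bars the mean ± SD of 3. The stages overlap in the first panel, with values of 3.68 to 4.42, and are separate in the second, with means of 1.66 in LL, 0.20 in LG and −1.22 in DP.

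Other miRNAs linked to lipid or insulin metabolism, or studied in ruminant mammary lipid synthesis, were described from a list of 23, of which 22 were tested and chi-miR-33b-5p was not, with at most 3 reads in any library. In LL vs. LG, where the family rose, 3 of the 22 rose and none fell, beside 8.91% and 3.88% of all tested miRNAs. The 3 were chi-miR-29a-3p, chi-miR-29b-3p and chi-miR-29c-3p, members of a family known for acting on collagen messengers, with log2FC values of 1.51, 1.66 and 2.38. The median of the list was 0.27 against 0.17 for all miRNAs. The number called was 5 when DP replicate 1, DP replicate 2 or DP replicate 3 was left out. With library size only it was 6, of which 2 were higher and 4 lower in LL, beside 30 higher and 90 lower of all 696 miRNAs with that scaling.

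In DP vs. LL, where the family fell, 11 of the 22 passed, 7 higher and 4 lower in DP, beside 15.1% and 11.6% of all tested miRNAs. Lower with the family were chi-miR-148a-3p, chi-miR-378-3p, chi-miR-122 and chi-miR-33a-5p. chi-miR-378-3p, whose hairpin lies in the gene of the coactivator PGC-1β, measured 3908, 3657 and 2940 CPM in the LL libraries against 691, 872 and 1082 CPM in those of DP. Its log2FC was −1.99 (SE 0.26, edgeR adjusted p = 0.000386). Unlike the family, it also fell against LG, by 2.15 on the log2 scale (SE 0.26, edgeR adjusted p = 0.000226). chi-miR-122, best known from liver, and chi-miR-33a-5p, encoded within a gene of the sterol regulator SREBP, had log2FC values of −2.55 and −2.30. chi-miR-33a-5p reached this from a low level, with 16 to 39 reads in LL and 2 to 13 in DP.

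Higher in DP than in LL were chi-miR-130a-3p and chi-miR-130b-3p, known regulators of PPARG, along with chi-miR-24-3p, chi-miR-26a-5p, chi-miR-183, chi-miR-221-3p and chi-miR-454-3p. Their log2FC values ran from 1.04 for chi-miR-24-3p to 2.32 for chi-miR-454-3p. The median of the list was 0.74 against 0.12 for all miRNAs. This count changed with the scale and when a library was left out, to between 6 and 12. It was 6 without LL replicate 1 and 7 without LL replicate 2 or LL replicate 3, so lower without any LL library. The share of all miRNAs called in these smaller fits was not analysed here. By library size only 13 were higher and 4 lower, beside 165 higher and 59 lower of all 696 miRNAs. With chi-miR-148a-3p left out before TMM 3 were higher and 4 lower, beside 81 and 95 of all.

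In DP vs. LG, where the family did not pass, 11 of the 22 did, 9 higher and 2 lower in DP, with a median of 0.83 against 0.18. Of all tested miRNAs, 21.6% were higher and 9.91% lower. chi-miR-29a-3p had the highest level among the 3 miR-29 members, at 661 ± 108 CPM in LG and 3131 ± 647 CPM in DP (SD, n = 3), a log2FC of 2.24 (SE 0.23, adjusted p = 0.000134, edgeR). chi-miR-221-3p, which acts on the cell cycle inhibitor p27, rose by a log2FC of 1.93.

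The miRNAs with the most similar pattern were sought among 229 other known miRNAs that averaged 10 CPM or more, by Pearson's r of log2(CPM + 0.5) over the 9 libraries. These values share libraries, scaling and stage, so they are a description. chi-miR-107-3p came first for chi-miR-103-3p (r = 0.959). It was followed by chi-miR-135a (0.929), chi-miR-146b-5p (0.892), chi-miR-500-3p (0.890) and chi-miR-423-5p (0.882). The 4 miRNAs after chi-miR-107-3p were also the 4 nearest to chi-miR-107-3p after chi-miR-103-3p, with r from 0.848 to 0.931. chi-miR-135a had 145 ± 57.3 CPM in LL, 15.4 ± 2.21 CPM in DP and 12.6 ± 3.96 CPM in LG (SD, n = 3 each). chi-miR-146b-5p, a relative of the immune regulator miR-146a, had 21579.5 ± 12384 CPM in LL, 1347 ± 457 CPM in DP and 2483 ± 2219 CPM in LG. Both passed in the same 2 comparisons as the family, but with log2FC values of 3.12 to 3.52 and −4.00 to −3.23. chi-miR-500-3p and chi-miR-423-5p were not called. In LL vs. LG their log2FC values were 0.51 and 0.66 (edgeR adjusted p of 0.158 and 0.0568), and in DP vs. LL they were −0.97 and −0.90 (edgeR adjusted p of 0.0111 and 0.0101), short of the limit of −1.

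The lowest correlations with chi-miR-103-3p were those of chi-miR-130b-5p (r = −0.944), chi-miR-106b-5p (−0.934), chi-miR-34a (−0.868), chi-miR-432-5p (−0.859) and chi-miR-93-5p (−0.842). chi-miR-106b-5p and chi-miR-93-5p come from a cluster within the replication gene MCM7. chi-miR-130b-5p had 9.88 ± 2.34 CPM in LL, 28.9 ± 1.87 CPM in DP and 23.9 ± 1.67 CPM in LG (SD, n = 3 each). It was lower in LL than in LG (log2FC −1.27, SE 0.27, adjusted p = 0.0119, edgeR) and higher in DP than in LL (1.55, SE 0.27, adjusted p = 0.00237, edgeR). Of the 6 miR-15/16 relatives that averaged 10 CPM or more, which leaves out chi-miR-195-5p, chi-miR-15b-5p (−0.787) and chi-miR-16b-5p (−0.775) were the most opposed.

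Markers of the cell types that the gland could hold were measured in the same libraries. In whole tissue, fewer cells of a type cannot be told apart from less RNA per cell. Of 9 listed epithelial miRNAs, 8 were in the table, none was at 0, and their summed level was 35325 to 43018 CPM in LL, 14060 to 22385 CPM in DP and 34932 to 38643 CPM in LG. The most abundant of them was chi-miR-200b, with 19252.5 to 26729.8 CPM in LL and LG and 7792 to 13175 CPM in DP. The list was mixed in DP vs. LL, where 5 of the 8 fell (chi-miR-141, chi-miR-200a, chi-miR-200b, chi-miR-200c and chi-miR-429, 2.03-fold to 2.35-fold), chi-miR-183 rose 2.27-fold, and chi-miR-182 and chi-miR-96 were not called. Against LG, 3 fell in DP, and in LL vs. LG 0 of 8 were called by edgeR, with 2 at an unadjusted p under 0.05. Of all tested miRNAs, 11.6% fell in DP vs. LL, 9.91% fell in DP vs. LG and 12.8% were called in LL vs. LG. The epithelial sums of LL and LG overlapped. In that comparison 3 of the 8 were fitted higher and 5 lower in LL. The 2 with an unadjusted p under 0.05 were chi-miR-141 and chi-miR-200a, both lower in LL with a log2FC of −0.65. Per 100 reads of the epithelial miRNAs, the family had 19.2, 18.9 and 21.8 reads in LL and 8.41, 7.07 and 7.36 in LG. The 3 libraries of DP had 9.82, 14.3 and 18.8 reads, a wide range between LG and LL. The highest of them, 18.8, nearly reached the lowest of LL, 18.9. How many other miRNAs separate the stages on such a ratio was not analysed here.

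Among the other markers, all 5 stromal and smooth muscle miRNAs summed to 77786 to 125722 CPM in LL, 47515 to 152577 CPM in DP and 57432 to 65601 CPM in LG. Most of that sum was chi-miR-143-3p, which was not called in any comparison, nor was chi-miR-145-5p. The other 3, known from fibroblasts, rose in DP against both LL and LG: chi-miR-199a-3p 3.75-fold and 5.99-fold, chi-miR-199a-5p 2.12-fold and 3.29-fold, and chi-miR-214-3p 6.75-fold and 6.74-fold. These rises stood beside the family's fall in DP vs. LL. The 2 endothelial miRNAs had 15853 to 22980 CPM in LL, 19028 to 31975 CPM in DP and 14716 to 16363 CPM in LG, with chi-miR-126-5p called higher in DP vs. LG. For 3 of 5 immune miRNAs in the table the ranges were 581 to 740 CPM in LL, 767 to 1935 CPM in DP and 243 to 360 CPM in LG, with 3 called higher in DP than in LG, 1 in DP than in LL, and 2 in LL than in LG. Red blood cell miRNAs (3 of 4) had 364 to 551 CPM in LL, 122 to 1284 CPM in DP and 87.1 to 168 CPM in LG, with 1 called higher in DP vs. LG. All 4 skeletal muscle miRNAs summed to 672 to 879 CPM in LL, 907 to 3400 CPM in DP and 383 to 495 CPM in LG, with 1 called higher in DP vs. LL and 2 in DP vs. LG. These counts of called markers stand beside 21.6% of all tested miRNAs called higher in DP than in LG, 15.1% called higher in DP than in LL, and 8.91% called higher in LL than in LG. None of these markers was at 0 in all libraries, and their part in the result was not tested.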

How the data were processed

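Small RNA libraries of 9 goats were analysed, with stages taken from the sample titles. Per the paper's methods, the authors used Trimmomatic for trimming, mapped the reads onto the goat genome through miRDeep2, and counted those on miRBase and predicted miRNAs with its quantifier. The submitters' processing notes name FastQC 0.11.9, cutadapt 4.2 and Bowtie 1.1.1. The deposited values are raw counts per mature miRNA. In the deposited LL replicate 3 column, treated as estimated counts, 2 predicted miRNAs have values that are not whole, and these were rounded. The mismatches allowed are not given in the sources used here. The paper's RUVSeq step was not applied.

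Counts were tested with edgeR 4.0.16 (R 4.3.3; glmQLFit, glmQLFTest) after TMM scaling, on the 696 miRNAs that reached 0.5 CPM in 3 or more libraries. A single fit held all 9 libraries, with stage as its only term. The standard error is the absolute log2 fold change divided by the square root of F. Ratios were tested by exact permutation over libraries (numpy 2.4.6, scipy 1.17.1, Python 3.11.15). Scripts were tested on simulated data. Alternative tests were limma-voom (limma 3.58.1) and DESeq2 1.42.0. Alternative scalings used library size only, the upper quartile, or TMM after removing chi-miR-148a-3p. Alternative filters were none and a minimum of 10 counts in each library. Other fits took only the 2 stages compared, added a replicate block, or left out 1 library at a time. Members, lists and tests were chosen with earlier results of these data known.

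Named miRNAs are the members, the listed miR-15/16 relatives and lipid-linked miRNAs, the 5 known miRNAs with the highest and the 5 with the lowest Pearson r, and chi-miR-148a-3p. Single cell type markers were named in addition, after their values were seen. The lipid-linked list shares chi-miR-183 with the epithelial and chi-miR-145-5p with the stromal markers. No 2 libraries of a stage differed by as little as counting error, with chi-square values of 219 to 3940 per degree of freedom. Coordinates are 1-based RefSeq positions on ARS1.2.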

Additional observations from a re-analysis of the deposited data

How the results depend on the processing

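The calls of chi-miR-107-3p in LL vs. LG and of both guide strands in DP vs. LL held under all 9 alternatives, with log2 fold changes of 1.09 to 1.67 and of −1.86 to −1.23. That of chi-miR-103-3p in LL vs. LG held under 8, and was 0.85 with library size only, because the fold change limit was missed. In DP vs. LG neither strand was called under any alternative. With each library left out in turn, the log2 fold change of chi-miR-103-3p was 1.14 to 1.36 in LL vs. LG (edgeR adjusted p at most 0.0399), −1.62 to −1.52 in DP vs. LL and −0.39 to −0.16 in DP vs. LG. For chi-miR-107-3p it was 1.47 to 1.60, −1.90 to −1.58 and −0.41 to −0.10. All of these kept their side of the limits. In LL vs. LG the values for both strands without 1 library were all below those of the full fit, and the cause was not tested.

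Of the miR-15/16 relatives, 0 were called in LL vs. LG, and 1 with DESeq2, 3 with library size only, 2 with no filter, 1 with at least 10 counts in every library, 2 with only the 2 stages compared and 0 to 1 without 1 library. Of all miRNAs tested in LL vs. LG, 12.8% were called in the full fit, 17.7% with DESeq2 and 17.2% with library size only. The share was 7.67% with no filter, 14.7% with at least 10 counts and 21.1% with only the 2 stages compared. It was not analysed here for the fits without 1 library. Without 1 library, 4 to 6 of the relatives were called in DP vs. LL and 2 to 3 in DP vs. LG. Of the lipid-linked miRNAs, 3 were called in LL vs. LG, and 5 with DESeq2, 6 with library size only, 5 with no filter, 5 with at least 10 counts in every library, 6 with only the 2 stages compared and 3 to 5 without 1 library. In DP vs. LL it was 11, and 17 with library size only, 7 after removing chi-miR-148a-3p before TMM, 7 with at least 10 counts in every library, 7 with only the 2 stages compared and 6 to 12 without 1 library. In DP vs. LG, 8 to 11 were called without 1 library. The cause was not tested. The exact permutation tests kept their side of 0.05 under all alternatives, with p of 0.282 to 0.864 without 1 library for the ratio of both guide strands, 0.00357 to 0.00714 for the family's share and 0.00357 for the ratio to the miR-15/16 relatives, which is the smallest they allow. The share scaled by TMM had an exact permutation p of 0.0179.

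Over all tested miRNAs, edgeR called 62 higher and 27 lower in LL vs. LG, against 30 and 90 with library size only, and 141 in all with only the 2 stages compared. In DP vs. LL it called 105 higher and 81 lower, against 165 and 59, and in DP vs. LG 150 and 69, against 116 and 85.

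The replicate numbers only name different goats. Deviations from the stage means correlated by −0.06 to 0.26 in the 9 same-numbered pairs, over 0.1 in 4, and 9 of 18 best matches in another stage had the same number. With the number as a replicate block, edgeR called 88 miRNAs in LL vs. LG against 89 without it, 170 against 186 in DP vs. LL and 222 against 219 in DP vs. LG. The log2 fold changes of chi-miR-103-3p were then 1.42, −1.57 and −0.16 and those of chi-miR-107-3p 1.67, −1.75 and −0.09, and the block changed no call of either. For the passenger strand chi-miR-103-5p, with at most 14 reads a library, 3 reads correspond to 0.0873 to 0.219 CPM.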
